A study of Mus musculus with 24 samples.

Results

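The genes described here are 10 genes of MHC class I antigen presentation, H2-K1, H2-D1, H2-Q7, H2-T23, B2m, Tap1, Tap2, Psmb8, Psmb9 and Nlrc5. They were chosen by name among the 22911 gene symbols on a mouse expression array, with earlier results of these data known. All 10 were found through the accession of their probes, and they held 16 of the 56605 probes. Colon RNA of 24 mice was labeled with 1 dye and each mouse was read on 1 Agilent array, with 4 arrays in each of 6 groups. The groups were male mice (M + LFD and M + HFD), intact female mice (F + LFD and F + HFD) and ovariectomized female mice (F(OVX) + LFD and F(OVX) + HFD), which ate for 14 weeks either a diet low in fat (LFD, fat giving 10% of its calories) or one high in fat (HFD, 45%). All mice were C57BL/6J, arrived at 7 weeks of age and underwent surgery, which was a sham operation in the males and the intact females. All 6 groups also received azoxymethane (10 mg/kg), a colon carcinogen, and 3 cycles of 1.5% dextran sulfate sodium, which injures the colonic epithelium, and no group was left without them. The colon was taken 75 days after azoxymethane, from mice picked for a body weight near the average of their group (5 per group in the methods, 4 per group in the labels).

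MHC class I molecules show fragments of the cell's own proteins to CD8 T cells. The proteasome, in its interferon-induced form with Psmb8 and Psmb9, cuts the proteins, the transporter made of Tap1 and Tap2 moves the peptides into the endoplasmic reticulum, and there they bind a heavy chain paired with B2m. Interferon gamma raises the whole set, partly through Nlrc5, a transactivator that acts on a conserved module of promoter boxes. In the colon, class I molecules are carried by the epithelium and by the leukocytes of the mucosa.

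Of the 10 genes, 8 are on chromosome 17. In the annotation, Psmb9, Tap1, Psmb8 and Tap2 follow each other in that order with no other protein-coding gene between them. B2m is on chromosome 2 and Nlrc5 is on chromosome 8. Promoter windows (RefSeq, GRCm38.p6, 250 bases before to 50 bases after the annotated start) were found for 8 of the 10 genes, all but Tap2 and Nlrc5. The stretches from 190 bases to 1 base before the start are shown for 6 genes, because the boxes that class I regulators bind lie there. They are written 5′ to 3′ along the gene. Capitals mark CCAAT or its complement ATTGG (the Y box), TGACG or CGTCA (the core of the X2 box), a pair of GAAA or of TTTC with 2 bases between them (the core of the interferon-stimulated response element, ISRE) and GGGGA directly followed by TTCCC (the kappaB site of the class I enhancer).
H2-K1 (chr17:34000348-34000537, minus strand): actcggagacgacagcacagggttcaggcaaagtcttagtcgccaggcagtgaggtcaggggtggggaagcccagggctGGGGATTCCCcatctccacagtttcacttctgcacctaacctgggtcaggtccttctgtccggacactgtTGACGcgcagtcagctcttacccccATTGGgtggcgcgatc
H2-D1 (chr17:35262904-35263093, plus strand): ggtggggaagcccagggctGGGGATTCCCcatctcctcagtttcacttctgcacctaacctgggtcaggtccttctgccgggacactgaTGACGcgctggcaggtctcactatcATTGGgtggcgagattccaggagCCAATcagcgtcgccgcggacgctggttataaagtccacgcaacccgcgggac
H2-Q7 (chr17:35438965-35439154, plus strand): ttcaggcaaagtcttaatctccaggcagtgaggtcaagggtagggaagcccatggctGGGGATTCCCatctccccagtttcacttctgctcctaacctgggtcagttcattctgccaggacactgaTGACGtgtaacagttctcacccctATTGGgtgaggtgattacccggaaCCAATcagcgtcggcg
B2m (chr2:122147497-122147686, plus strand): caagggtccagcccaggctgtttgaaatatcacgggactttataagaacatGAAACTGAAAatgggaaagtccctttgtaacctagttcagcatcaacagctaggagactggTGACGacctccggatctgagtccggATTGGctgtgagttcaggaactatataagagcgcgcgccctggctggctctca
H2-T23 (chr17:36032702-36032891, minus strand): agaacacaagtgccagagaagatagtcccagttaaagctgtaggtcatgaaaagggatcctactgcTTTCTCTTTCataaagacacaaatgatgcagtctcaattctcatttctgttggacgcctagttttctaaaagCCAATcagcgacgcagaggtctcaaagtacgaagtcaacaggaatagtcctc
Tap1 (chr17:34187366-34187555, plus strand): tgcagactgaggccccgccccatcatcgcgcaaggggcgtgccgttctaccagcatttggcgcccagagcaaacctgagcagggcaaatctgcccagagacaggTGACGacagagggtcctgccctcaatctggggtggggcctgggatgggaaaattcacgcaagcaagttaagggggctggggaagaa

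The classical heavy chains H2-K1 and H2-D1, the Qa-2 heavy chain H2-Q7 and B2m shared 1 arrangement of boxes. TGACG was followed by ATTGG after 20 bases in H2-K1, H2-D1 and B2m and after 19 bases in H2-Q7. TGACG began at -41 in H2-K1, -101 in H2-D1, -78 in B2m and -64 in H2-Q7, counted in bases from the start. H2-K1 has a further annotated start, from which TGACG began at -55. That pair, at 19 or 20 bases and on either strand, was in the windows of 4 of the 8 genes and in 0.131% of 32851 mouse promoter windows. The kappaB site of the class I enhancer was in H2-K1, H2-D1 and H2-Q7 and in 0.107% of all windows. The spaced pair and this site were picked after these sequences had been read. Of the motifs named without the sequences, CCAAT was in 7 of the 8 genes and 37.4% of all windows, and TGACG in 6 of the 8 and 20.8%. The ISRE core, as this exact pattern, was in 2 of the 8 (B2m and H2-T23) and 3.44%. Looser forms of the element were not searched, so the count does not show that the other windows lack it. GGG and CC with 5 bases between them, a loose kappaB pattern that also takes in the class I site, were in 6 of the 8 and 50.8%. All were searched on both strands. The windows of Tap1 and Psmb9, which face away from each other, overlapped over 275 of their 300 bases and were therefore not separate examples. The stretches of H2-K1, H2-D1 and H2-Q7 shown above closely resembled each other. They were therefore not separate examples of the spaced pair or the kappaB site either.

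Values are log2 of the processed signal after quantile normalization over the 24 arrays, for the brightest probe of each gene, so that 1 unit is a 2-fold difference in signal. In males, 10 of 10 class I genes had a lower mean on HFD than on LFD, and 6 of them (H2-K1, H2-T23, B2m, Tap1, Psmb8 and Nlrc5) passed the study's thresholds of at least 1.5-fold and an unadjusted p under 0.05 in limma. At the same thresholds, 1.80% of the 20516 genes tested were called lower and 48.2% had a lower mean, and no class I gene was called higher (2.50% of all genes were). The unadjusted p alone was under 0.05 in 9 of the 10, against 6.10% of all genes. The 10 genes were chosen with earlier results of these data known, so these counts describe them and are not a test. The median change of the 10 genes was -0.75 on the log2 scale, against 0.01 over all genes tested. After Benjamini-Hochberg adjustment over all genes tested, no gene on the array was under 0.05 in this comparison, and the adjusted limma p of the 10 genes lay between 0.80 and 0.806. The p-values measure the spread between these animals.

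A marker of position along the colon set 2 male arrays apart. M + LFD replicates 1 and 2 had a Hoxb13 signal of 2.18 and 5.04, where the other 22 arrays had 12.58 to 14.79. Hoxb13 is a homeobox gene that marks the most distal colon. The main results in males are therefore given with and without these arrays. Leaving them out does not even out every distal colon marker listed. Hoxd13, another homeobox gene, read 5.08 and 6.46 in M + LFD replicates 3 and 4. In M + HFD replicates 1 to 4 it read 11.38, 8.53, 5.35 and 9.49, and in F + LFD it ran from 2.69 to 10.90. Whether the remaining arrays came from the same position was not tested.

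**Figure D1:**
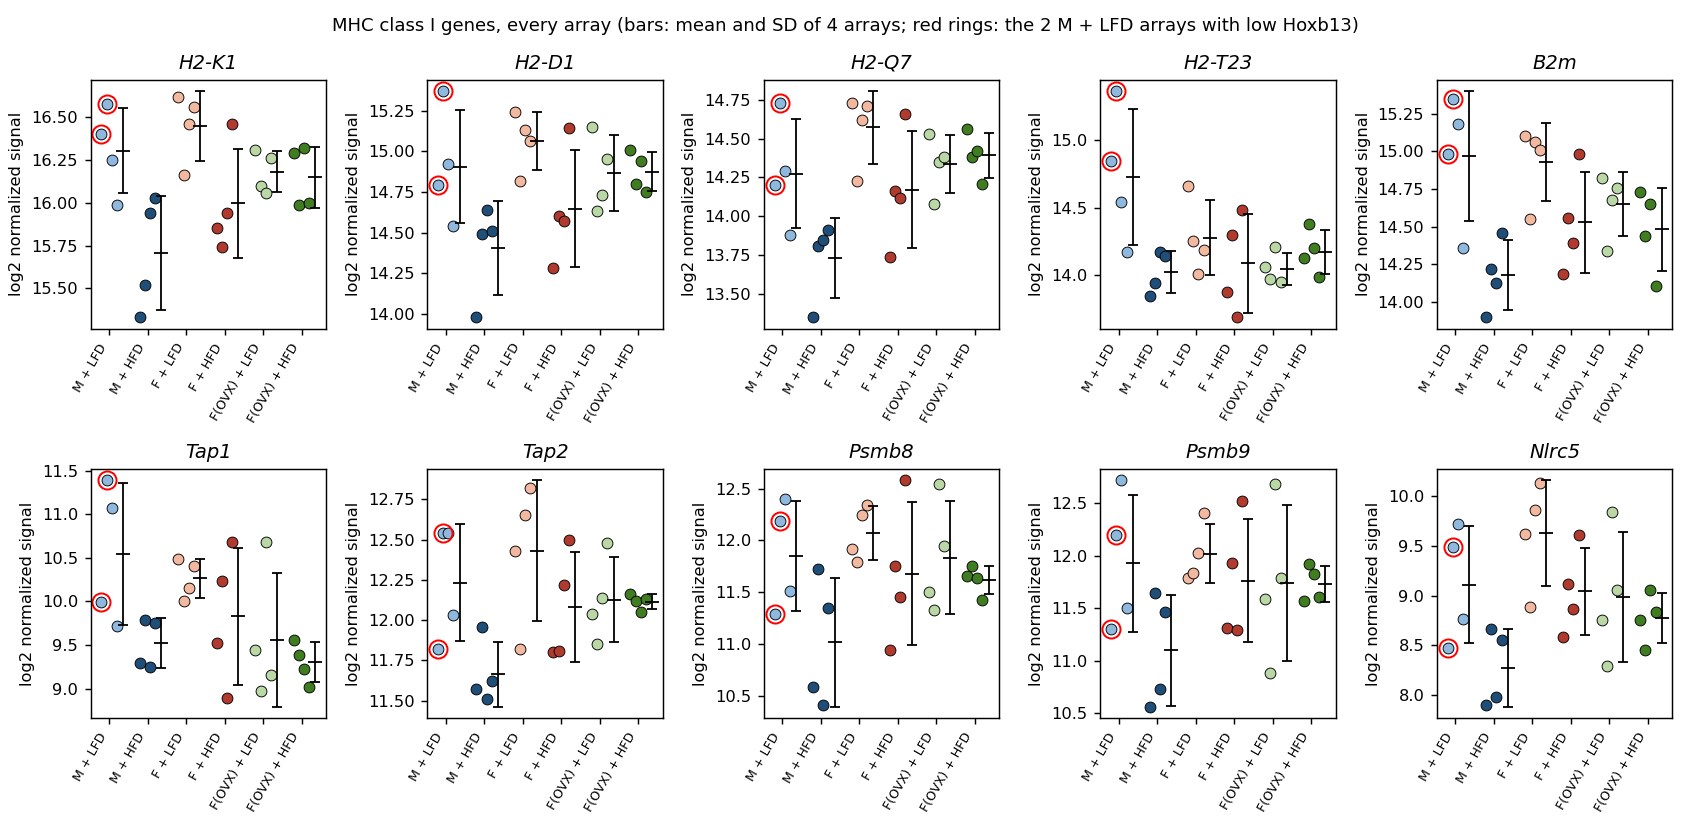
Log2 normalized signal of each class I gene (vertical axes, a scale of its own in each panel) in each of the 24 arrays, by group, with the mean and SD of 4 arrays beside the points; red rings mark M + LFD replicates 1 and 2, with low Hoxb13. The M + HFD points lie low in most panels, and in H2-T23 all 4 lie below all 4 M + LFD points.

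The heavy chains are the membrane-spanning chains that hold the peptide. H2-K1, a classical heavy chain, read 16.40, 16.58, 16.25 and 15.99 in M + LFD replicates 1 to 4 and 15.33, 15.52, 15.94 and 16.03 in M + HFD replicates 1 to 4. The groups overlapped by a single array, with M + HFD replicate 4 above M + LFD replicate 4. The change was -0.60 ± 0.21 (SE from limma, n = 4 per group; adjusted p = 0.80), a 1.52-fold lower signal on HFD, and the exact two-sided permutation test of the diets gave p = 0.0571. H2-D1, the other classical heavy chain of this strain, read 14.79, 15.37, 14.92 and 14.54 on LFD and 13.98, 14.49, 14.64 and 14.51 on HFD. Here too a single array overlapped on each side. The change of -0.50 ± 0.22 (exact permutation p = 0.0571) was under 1.5-fold and was not called. H2-Q7, a Qa-2 heavy chain, changed by -0.55 ± 0.21 (exact permutation p = 0.0571), also under 1.5-fold.

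H2-T23 encodes Qa-1, a nonclassical heavy chain recognized by the NK cell receptor CD94/NKG2A. It read 14.84, 15.36, 14.54 and 14.17 in M + LFD and 13.85, 13.94, 14.17 and 14.14 in M + HFD. The 4 HFD values were all below the 4 LFD values, though the closest pair both round to 14.17, and it was the 1 class I gene without overlap in males (0.911% of all genes tested had all HFD values below all LFD values). The change was -0.70 ± 0.25 (limma, adjusted p = 0.80). The exact permutation test gave p = 0.0286, the smallest that 70 assignments allow, and the other 9 class I genes gave exact p-values from 0.0571 to 0.143. Without M + LFD replicates 1 and 2 the change in H2-T23 was -0.33 and was not called.

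B2m is the light chain shared by all class I molecules. It read 14.98, 15.35, 15.18 and 14.36 in M + LFD and 13.90, 14.22, 14.13 and 14.46 in M + HFD. M + LFD replicate 4 was the only LFD array inside the range of the HFD arrays. The change was -0.79 ± 0.23 (limma, adjusted p = 0.80; exact permutation p = 0.0571), a 1.73-fold lower signal. By unadjusted p in limma, B2m ranked 180 among the 20516 genes, ahead of the other 9. Without M + LFD replicates 1 and 2 its change was -0.59 and was not called.

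The transporter is a pair of Tap1 and Tap2, and Tap1 passed the thresholds. Tap1 had the largest fitted change of the 10 genes, from 9.99, 11.39, 11.07 and 9.72 in M + LFD to 9.29, 9.79, 9.25 and 9.75 in M + HFD. M + LFD replicates 2 and 3 stood more than 1 unit above every M + HFD array, while M + LFD replicates 1 and 4 were close to them. The change was -1.02 ± 0.38 (limma, adjusted p = 0.80; exact permutation p = 0.0857), with a 95% interval from -1.89 to -0.16. Tap2 changed by -0.57 ± 0.21 (exact permutation p = 0.0571), just under 1.5-fold and not called.

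The immunoproteasome subunits Psmb8 and Psmb9 replace constitutive catalytic subunits of the proteasome when interferon is present. Psmb8 read 11.29, 12.19, 12.40 and 11.51 in M + LFD and 10.59, 11.72, 10.41 and 11.35 in M + HFD, with 2 arrays of each diet inside the other's range. The change was -0.83 ± 0.36 (limma, adjusted p = 0.806; exact permutation p = 0.143). Psmb9 gave a like change, -0.83 ± 0.37, whose unadjusted p was just over the threshold, and was not called. The constitutive subunits Psmb5, Psmb6 and Psmb7 had a median change of -0.08, and the 11 subunits of the 20S core listed had lower means in 11 of 11 with a median of -0.15 and none called.

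Nlrc5 read 8.47, 9.49, 9.72 and 8.76 in M + LFD and 7.90, 8.66, 7.98 and 8.55 in M + HFD. As in Tap1, M + LFD replicates 2 and 3 were the high arrays. Its change was -0.84 ± 0.31 (limma, adjusted p = 0.80; exact permutation p = 0.0857), a 1.79-fold lower signal. Without M + LFD replicates 1 and 2 it was -0.97 and was still called. The call was lost without M + LFD replicate 2 or 3 alone, without M + HFD replicate 1 or 3, and with the methods' t-test.

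Several genes had further probes. Taking each probe by itself, 14 of the 16 were well above background in males, 14 of 14 had a lower mean on HFD, and 10 were called lower (1.85% of the 26118 probes tested). The second probe of H2-K1 changed by -0.74 ± 0.23, the other probes of H2-Q7 by -0.66 and -0.73, and the second probe of Tap1 by -1.07 ± 0.45. The second probes of Tap2 and Nlrc5 were too dim to be tested in males. Class I heavy chain genes resemble each other closely, and whether probes of 1 gene also bound RNA of another was not tested.

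**Figure D2:**
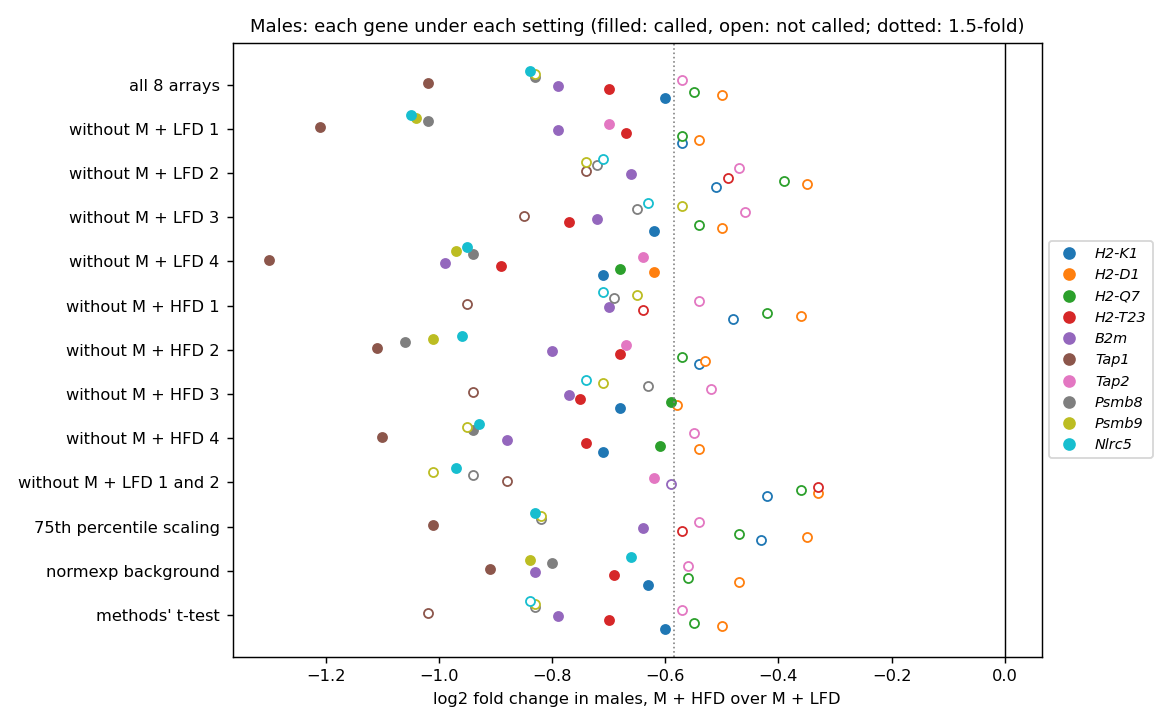
Log2 fold change of each class I gene in males (horizontal axis; M + HFD over M + LFD) with all 8 arrays, with each array left out, without M + LFD replicates 1 and 2, and under other processing (vertical axis); filled points were called and open points were not. All points lie below 0, and the number of filled points runs from 1 to 10.

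The number of class I genes called in males rested on single arrays, while the direction did not. All 10 means stayed lower on HFD in each of the 17 other settings tried. The count was 10 without M + LFD replicate 4, where 3.26% of all genes tested were called lower. It was 1 (B2m) without M + LFD replicate 2 (1.86% of all genes) and 1 (B2m) without M + HFD replicate 1 (1.09%). It was 3 without M + LFD replicate 3 (2.63%) and 2 (Tap2 and Nlrc5) without both arrays low in Hoxb13 (2.59%). Without those 2 arrays the heavy chains had smaller changes, of -0.42 in H2-K1, -0.33 in H2-D1, -0.36 in H2-Q7 and -0.33 in H2-T23. The other genes changed by -0.59 in B2m, -0.88 in Tap1, -0.62 in Tap2, -0.94 in Psmb8, -1.01 in Psmb9 and -0.97 in Nlrc5, and the median of the 10 was -0.61. H2-K1, H2-T23, B2m, Tap1 and Psmb8 thereby lost their call and Tap2 gained one. With all 8 arrays the count was 3 with 75th percentile scaling (B2m, Tap1 and Nlrc5) and 3 with the methods' t-test (H2-K1, H2-T23 and B2m).

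In intact females, 10 of 10 class I genes also had a lower mean on HFD (50.8% of all genes tested did), with a median change of -0.40 against 0.00 over all genes, and 0 were called by limma or by the methods' t-test (0.797% of the 22085 genes tested were called lower and 0.398% higher). Scaled by the 75th percentile instead of quantiles, 9 of the 10 were lower and the median was -0.14. H2-K1 was the 1 gene with an unadjusted limma p under 0.05, which 2.91% of all genes had. It read 16.62, 16.16, 16.46 and 16.56 in F + LFD and 15.85, 15.74, 15.94 and 16.46 in F + HFD, a change of -0.45 ± 0.19 (limma, adjusted p = 0.991; exact permutation p = 0.0857). F + HFD replicate 4 was inside the LFD range and the other 3 HFD arrays were below all LFD arrays. Nlrc5 had the largest change, -0.58 ± 0.31 (exact permutation p = 0.114), and H2-T23 the smallest, -0.19 ± 0.22.

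F + HFD replicate 4 was the highest of its group in all 10 genes. Its Tap1 signal was 10.68, against 9.52, 10.23 and 8.89 in the other F + HFD arrays. Its Psmb8 signal was 12.58, against 10.94, 11.75 and 11.45. Without it 3 genes were called lower, namely H2-K1 (-0.61), Psmb8 (-0.69) and Nlrc5 (-0.77), and the median change was -0.57. Of all genes tested without it, 1.39% were called lower. Without F + LFD replicate 2, 1 gene was called lower (Nlrc5), as were 1.93% of all genes.

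In ovariectomized females, 7 of 10 class I genes had a lower mean on HFD (47.8% of all genes), the median change was -0.02 against 0.01 over all genes, and 0 were called by limma or by the methods' t-test, with none at an unadjusted p under 0.05. Of the 19211 genes tested, 1.02% were called lower, 1.18% higher and 3.69% had an unadjusted p under 0.05. The heavy chains had narrow intervals. H2-K1 changed by -0.03 with a 95% interval from -0.35 to 0.30, H2-Q7 by 0.06 from -0.28 to 0.40, and H2-T23 by 0.13 from -0.19 to 0.44, so that the intervals excluded a 1.5-fold fall. For Tap1 (-0.26, from -1.05 to 0.53), Psmb9 (-0.01, from -0.76 to 0.75) and Nlrc5 (-0.21, from -0.91 to 0.49) they did not.

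F(OVX) + LFD replicate 3 was the highest of its group in these 3 genes. It read 10.68 in Tap1, against 9.44, 8.97 and 9.16 in the other F(OVX) + LFD arrays. It read 12.69 in Psmb9, against 11.59, 10.88 and 11.79. The array also had the lowest 75th percentile of processed signal of the 24 (124.6, highest 668.9). Without it the median change of the 10 genes was 0.05 and 4 of 10 were lower on HFD.

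**Figure D3:**
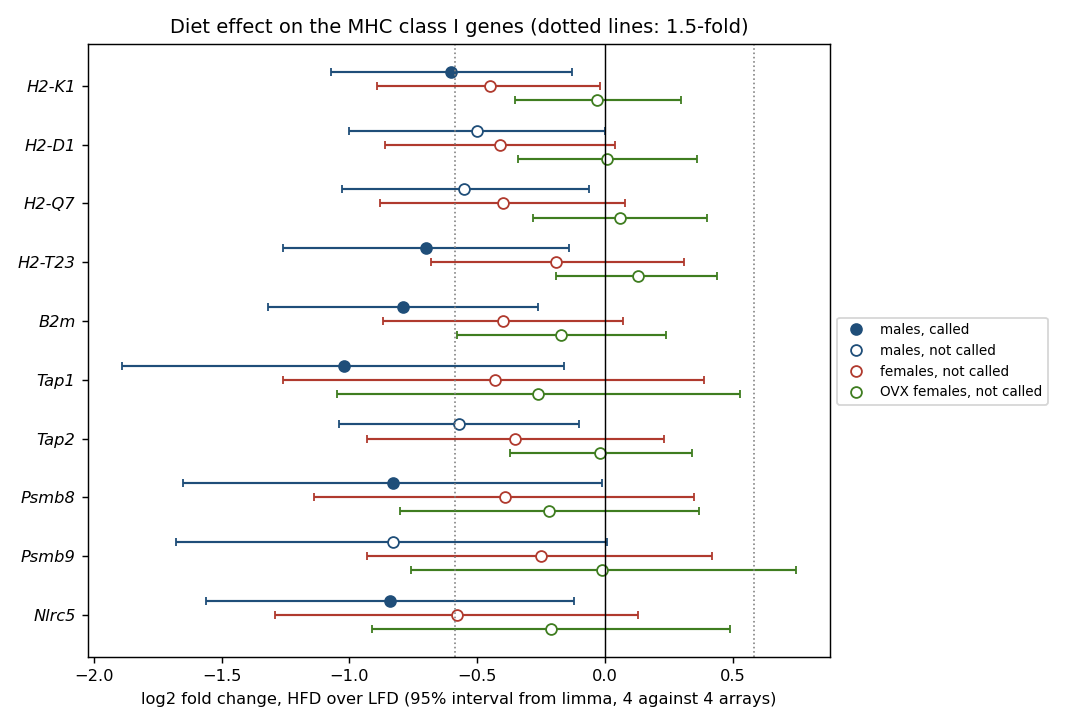
Log2 fold change of each class I gene on HFD against LFD (horizontal axis) in males, females and ovariectomized females, with the 95% interval from limma (4 against 4 arrays each); filled points were called at 1.5-fold, the dotted lines, and p under 0.05. Filled points occur in males, and the male point is the lowest of the 3 for each gene.

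The diet effects were then compared between the kinds of mice in 1 limma fit of all 24 arrays. Each kind was hybridized on a slide of its own, and within each slide the LFD arrays lay in 1 row and the HFD arrays in the other, so kind and slide, and diet and row, cannot be told apart. Between males and ovariectomized females, 3 class I genes differed by at least 1.5-fold at an unadjusted p under 0.05, each with the more negative effect in males, as had 3.17% of the 20765 genes tested. The unadjusted p alone was under 0.05 in 4 class I genes and in 7.74% of all genes. The 3 were H2-T23 (-0.83 ± 0.29), B2m (-0.62 ± 0.30) and H2-Q7 (-0.61 ± 0.27). The median difference over the 10 genes was -0.62 against 0.01, and the adjusted limma p-values ran from 0.529 to 0.843. None of the 3 calls was kept without the 2 M + LFD arrays low in Hoxb13, where the differences were -0.46 ± 0.27 in H2-T23, -0.43 ± 0.33 in B2m and -0.42 ± 0.29 in H2-Q7, the median of the 10 was -0.53, and no class I gene was called by limma or had an unadjusted p under 0.05. None of the 3 was kept with 75th percentile scaling either. The count was 1 (H2-T23) without M + LFD replicate 2, M + HFD replicate 1, F(OVX) + LFD replicate 2, F(OVX) + HFD replicate 1 or F(OVX) + HFD replicate 3, and 5 without M + LFD replicate 4, F(OVX) + LFD replicate 1 or F(OVX) + LFD replicate 4.

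Between males and intact females 0 class I genes differed in their diet effect by limma, none with an unadjusted p under 0.05. Of the 22365 genes tested, 1.08% were called with the more negative effect in males, and 3.52% had an unadjusted p under 0.05. The differences ran from -0.59 in Tap1 to -0.09 in H2-D1 with a median of -0.32. The interval of the Tap1 difference, -1.76 to 0.57, covered both no difference and a larger fall in males than in females. Without the 2 M + LFD arrays low in Hoxb13 the differences ran from -0.76 in Psmb9 to 0.09 in H2-D1 with a median of -0.23, and again 0 were called by limma, none with an unadjusted p under 0.05. Between ovariectomized and intact females 0 differed, none with an unadjusted p under 0.05 (of 22133 genes, 0.750% were called in the direction of the 10 genes and 2.12% had an unadjusted p under 0.05), and the 10 differences ran from 0.17 to 0.46.

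Levels were also set side by side within each diet. From the lowest group mean to the highest, M + HFD came first in 9 of the 10 genes, and in Tap1 F(OVX) + HFD came first. The highest mean was that of F + LFD in 7 genes and of M + LFD in H2-T23, B2m and Tap1. In each gene, each group's range overlapped that of its neighbor in the order. On HFD, males were lower than intact females in 10 of 10 genes, with a median difference of -0.39, and limma called 1, Nlrc5 (-0.77 ± 0.33, adjusted p = 0.294), where 3.13% of 20348 genes were called lower. The unadjusted p was under 0.05 in 2 of the 10 genes and in 14.6% of all genes. On LFD 0 were called (5.04% of 22209 genes), and H2-T23, higher in males by 0.45, was the 1 gene with an unadjusted limma p under 0.05 (9.62% of all genes). Without M + LFD replicates 1 and 2 the H2-T23 difference was 0.08, that of B2m -0.16 and that of Tap1 0.13. Ovariectomized against intact females gave 0 calls, none with an unadjusted p under 0.05, on LFD (1.15% of 22031 genes were called lower and 3.26% had such a p; median of the 10 genes -0.27) and on HFD (1.97% of 19713 genes were called and 4.86% had such a p; median 0.00).

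Over the 24 arrays the 10 genes rose and fell with each other to differing degrees. The 45 pairs had Pearson correlations from 0.29 to 0.96, with a median of 0.72, and from 0.12 to 0.96 with a median of 0.64 once each group's mean was removed. The arrays share slides and labeling, and these values are descriptions. The closest pairs were H2-D1 with H2-Q7 (0.96) and Psmb8 with Psmb9 (0.94). The loosest were those of H2-T23 with Tap2 (0.29), Nlrc5 (0.34) and Psmb8 (0.38). H2-T23 was nearer to Tap1 (0.74) and B2m (0.70).

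Among 11872 other genes well above background on all 24 arrays, the 9 that followed the mean of the class I genes most closely were H2-K2 (r = 0.88), Il18bp (0.85), H2-Q8 (0.85), Ifi47 (0.85), H2-T22 (0.84), Psme1 (0.83), Cxcl9 (0.83), H2-Q10 (0.83) and H2-Q2 (0.82). Of these, 5 are heavy chain genes or heavy chain-like pseudogenes of the same locus. Il18bp is the soluble inhibitor of interleukin-18, Ifi47 an interferon-induced GTPase, Psme1 a subunit of the PA28 proteasome activator, and Cxcl9 a T cell chemokine.

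**Figure D4:**
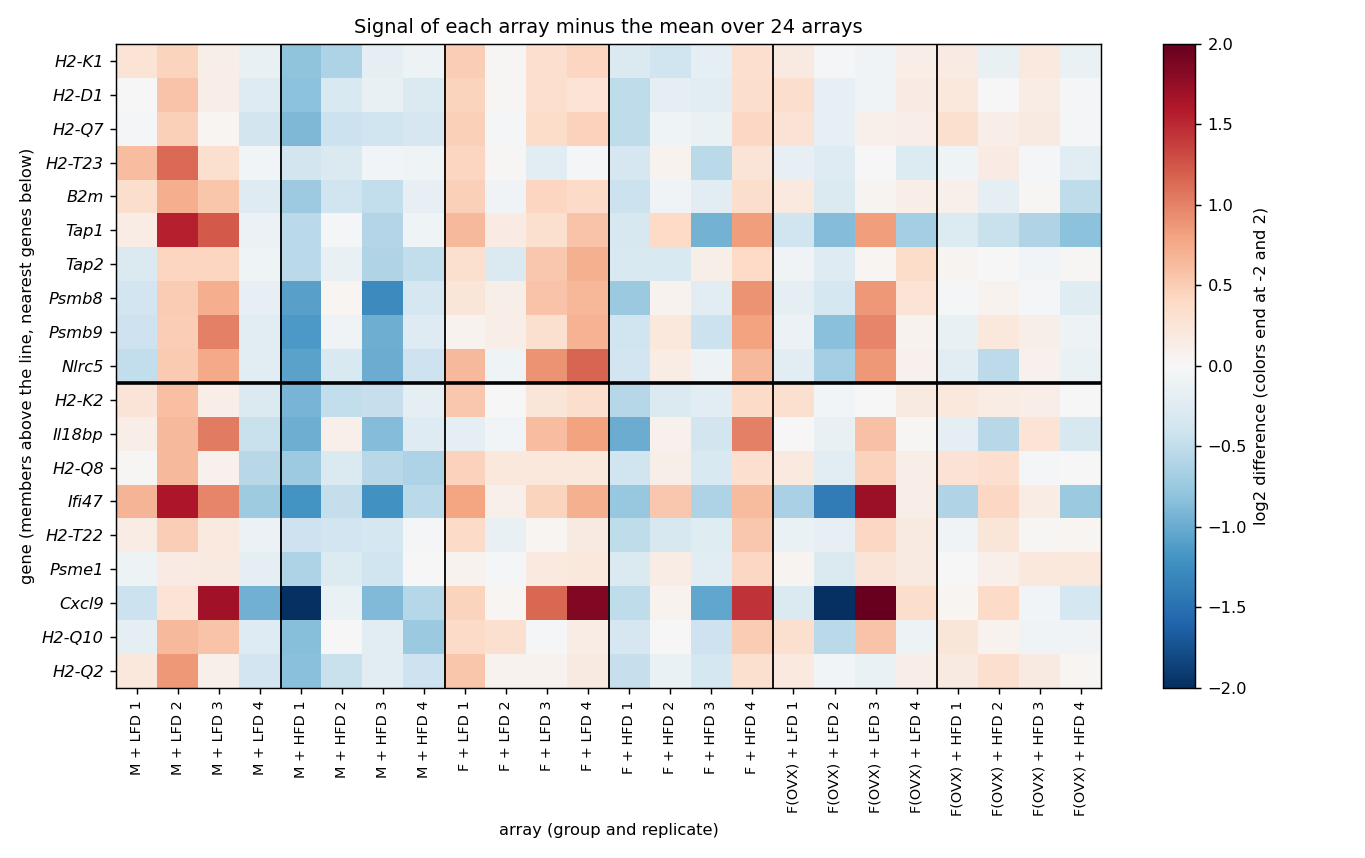
Signal of each array (columns, by group and replicate) minus the gene's mean over 24 arrays, on the log2 scale, for the 10 class I genes (above the line) and the 9 genes with the highest correlation to them (below). M + HFD columns are mostly blue, while F(OVX) + LFD replicate 3, M + LFD replicates 2 and 3, F + LFD replicates 1, 3 and 4, and F + HFD replicate 4 are mostly red.

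The rest of the pathway was read from lists of 66 genes, 60 of which had a probe. In males 56 were tested, 42 had a lower mean on HFD, 5 were called lower and 0 higher, and the median was -0.10. Of all genes tested, 48.2% had a lower mean, 1.80% were called lower and 2.50% higher, with a median of 0.01. The largest changes among these 5 were those of H2-T3, the thymus leukemia antigen of the intestinal epithelium (-1.87 ± 0.74), and Ifng, interferon gamma itself (-1.34 ± 0.36). The adjusted limma p was 0.80 for each. Ifng was dim, with 6.01, 6.07, 5.77 and 4.60 in M + LFD and 3.79, 4.66, 3.98 and 4.67 in M + HFD, and only 2 of the 4 HFD arrays were well above background. The heavy chains H2-Q2 (-0.68) and H2-Q8 (-0.60) were also called. These 4 calls changed with the arrays used, among them those low in Hoxb13. Without M + LFD replicates 1 and 2 the change was -0.47 in H2-T3, -0.91 in Ifng, -0.34 in H2-Q2 and -0.31 in H2-Q8. None of the 4 was then called, and 1 gene of the rest of the pathway was, where 2.59% of all genes were called lower. H2-T3, H2-Q2 and H2-Q8 also lost their calls without either of these arrays alone. The same 3 lost them without M + HFD replicate 1 or 4 and with the methods' t-test. Ifng kept its call with each single array left out. Over the tested genes of the rest of the pathway, 44 of 56 were then lower with a median of -0.19.

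By role, the other heavy chains and class I-like genes had a median change of -0.48 in males, with 9 of 11 tested lower. Peptide loading and trimming genes had a median of -0.03, with 6 of 9 lower and 0 called. Among them Tapbp, which bridges the transporter and the heavy chain, changed by -0.23, and Calr, a loading chaperone, by 0.10. Psmb10, the remaining immunoproteasome subunit, changed by -0.40 ± 0.20 and Psme1 by -0.34 ± 0.17, neither called. The factors that bind the class I promoter, such as RFX, NF-Y, CREB, IRF and NF-kappaB members, had a median of -0.07, with 7 of 11 lower and 0 called. In females and in ovariectomized females 0 genes of the rest of the pathway were called, of 58 and 56 tested, with medians of -0.05 and 0.01. Of all genes, 0.797% and 1.02% were called lower in these 2 comparisons.

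Cell type markers moved beside the class I genes in males. Of 14 T and NK cell genes, 12 were tested, and 12 of 12 had a lower mean on HFD (48.2% of all genes did). Their median change was -0.63, and 2 were called lower (1.80% of all genes were), Cd3g (-0.64) and Cd8b1 (-1.26). Their summed signal ran from 11.76 to 13.04 on the log2 scale in M + LFD and from 11.39 to 11.90 in M + HFD, and Ncr1 was above background on no array. The mean signal of the 13 T and NK genes above background on any array was 8.43, 8.62, 7.80 and 7.25 in M + LFD and 7.02, 7.44, 7.40 and 7.40 in M + HFD, so the 2 arrays low in Hoxb13 were the highest. Without them 10 of 12 were lower, the median was -0.25, neither Cd3g (-0.46) nor Cd8b1 (-0.70) was called, Klrk1 (-0.61) was, and the Cd8a difference turned from -1.04 to 0.26. In females 12 of 13 T and NK genes were lower on HFD, with a median of -0.39, and in ovariectomized females 7 of 12, with a median of -0.13. Other markers moved as much in females, with a median of -0.51 for myeloid genes (5 of 6 lower), -0.51 for MHC class II genes (5 of 5 lower) and 0.50 for smooth muscle genes (5 of 5 higher), none of them called. In ovariectomized females the smooth muscle median was 0.76, with 3 of 5 genes called higher (1.18% of all genes were). MHC class II genes were lower in 5 of 5 in ovariectomized females (median -0.42) and in males (median -0.27), with 0 called. In males without the 2 arrays low in Hoxb13 the class II median was -0.59. There 5 of 5 were lower and 2 were called, H2-Ab1 and Cd74 (2.59% of all genes were called lower). The median change in males was -0.11 for pan-leukocyte genes, 0.13 for myeloid genes, 0.74 for B cell genes and -0.01 for epithelial genes, of which Cdx2 was called lower (-1.77). Without the 2 arrays low in Hoxb13 these medians were -0.49, 0.03, -0.93 and 0.09, so that the B cell median changed sign, and Cdx2 (-1.24) was not called. The epithelial summed signal ran from 18.09 to 18.48 in M + LFD and from 18.00 to 18.41 in M + HFD. Fewer cells of a type and less RNA per cell cannot be told apart in whole colon tissue, and the part of these cells in the class I result was not tested.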

How the data were processed

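Total RNA of distal colon was amplified, labeled with Cy3 and hybridized to Agilent mouse arrays. The authors extracted spots with Agilent Feature Extraction (11.0.1.1, per the submitters' notes), and the deposited intensities per spot were the processed signal, from which that software had subtracted background, the median signal, local background and flags. Here log2 of the processed signal was taken, outlier spots were left out, arrays were quantile-normalized and spots of 1 probe averaged. Per array, 40.5 to 61.9% of probes were well above background and no spot was saturated; the 4 arrays per group limit the precision. A gene took its brightest probe and was tested where 1 of the compared groups had it well above background throughout. Tests were limma 3.58.1 in R 4.3.3 with Benjamini-Hochberg adjustment, where the methods use a t-test, and exact permutation for single genes. Named were all 10 class I genes, the 3 most changed pathway genes called and the 10 nearest genes, with marker genes beside results; 1 gene that both rules named is not reported here. Replicate numbers equal the column on the slide. Deviations from group means were correlated between the arrays of a number. The correlations were 0.28, 0.45, 0.58 and 0.26 in females and 0.33, -0.09, 0.32 and 0.25 in ovariectomized females. In males they were 0.01, -0.26, 0.00 and -0.03. The number was therefore also tried as a block. Fits were tested on simulated data. The genes and lists were chosen with earlier results of these data known. The array design names an older genome build than the promoter table, so the only coordinates given are those of the promoter stretches, on GRCm38.p6. The alternatives tried are in the closing section.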

Additional observations from a re-analysis of the deposited data

Results flagged for a closer look

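In H2-T23 the diet effect in males and in ovariectomized females differed by -0.83 on the log2 scale in the limma fit of all 24 arrays (adjusted p = 0.529). In B2m the same difference was -0.62 (limma, adjusted p = 0.641), and in H2-Q7 it was -0.61 (limma, adjusted p = 0.612). All 3 were picked out because the effects under the same contrast differed between 2 kinds of mice by a test of the difference itself. The 2 kinds were on different slides. Without M + LFD replicates 1 and 2, the arrays low in Hoxb13, the differences were -0.46, -0.43 and -0.42 and none met the thresholds (limma, adjusted p = 0.874, 0.916 and 0.903). In the 60 sets of 4 arrays (10 genes in 6 groups), 0 held an array whose gap to its nearest neighbor exceeded Dixon's 95% critical value, a limit that chance passes in about 1 set in 20. The nearest was B2m in F + LFD, where replicate 2 was at 14.55 and the next array at 15.01.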

How the results depend on the processing

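The median changes of the 10 class I genes were -0.75 in males, -0.40 in females and -0.02 in ovariectomized females. They moved by less than the spread between arrays in all settings tried, and no called gene changed sign. In males that spread, the SD of the array means pooled within the diets, was 0.35, so this limit lets large shifts pass. With single arrays left out the medians ran from -0.92 to -0.59 in males, from -0.57 to -0.27 in females and from -0.19 to 0.05 in ovariectomized females. Under the other settings they ran from -0.75 to -0.60 in males, from -0.40 to -0.14 in females and from -0.14 to -0.02 in ovariectomized females. The median of -0.14 in females came with 75th percentile scaling. Of the changes not called, 1 in females and 21 in ovariectomized females changed sign in some setting. In males 6 class I genes and 5 others of the pathway were called lower. These counts were 3 and 3 with 75th percentile scaling and 3 and 2 with the methods' t-test. They were 2 and 1 without both arrays low in Hoxb13, and 1 to 10 and 2 to 8 with single arrays left out. With single arrays left out in males, 1.09 to 3.26% of all genes were called lower. In females, where 0 and 0 were called, leaving out single arrays gave 0 to 3 and 0 to 3, and 75th percentile scaling and 1 fit of all 24 arrays each gave 1 other pathway gene. In ovariectomized females other pathway genes called ran from 0 to 1 with single arrays left out. Class I genes whose diet effect differed between males and ovariectomized females (3) were 0 with 75th percentile scaling, 0 without both arrays low in Hoxb13 and 1 to 5 with single arrays left out. With single arrays left out the counts were 0 to 2 for males against females and for ovariectomized against intact females in diet effect, 0 to 2 on LFD and 0 to 1 on HFD between ovariectomized and intact females, 0 to 1 on LFD and 0 to 3 on HFD between males and females. The last, 1 with all arrays, was 0 with normexp background correction. With the replicate number as a block, 5 class I genes were called in males (H2-K1 lost its call at -0.60) and 0 in females and in ovariectomized females, and the diet effects of 2 genes differed between males and ovariectomized females. Leaving out both arrays low in Hoxb13 was chosen after seeing the data for the comparisons between kinds of mice and for the marker and pathway lists. The cause of these shifts was not tested.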
